A study of Mus musculus with 18 samples.

Results

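The genes described here encode subunits of the mitochondrial respiratory chain and adenosine triphosphate (ATP) synthase: all 13 protein-coding genes of the mitochondrial genome and 24 nuclear genes, among them the electron carrier cytochrome c. They were taken by gene name from the deposited count table, and each of the 37 names matched exactly 1 of its 35667 genes. The 18 mouse bulk RNA libraries form 6 groups of 3. The retinoid-storing pericytes of the liver, hepatic stellate cells (HSC), were isolated from healthy wild-type mice. HSC were taken at day 7 after culture with intrahepatic cholangiocyte organoids (ICO) in Matrigel, alone in Matrigel, or alone on plastic, and directly after isolation (day 0) with no culture. ICO, grown from bile duct epithelium and used in the study as progenitor cells, carried the dTomato fluorescent tag and were taken at day 7 from the co-culture or from Matrigel without HSC. Cells from Matrigel were sorted at day 7, as the series' design text states. No sex, age, strain or number of mice is stated in the sources used here, and the labels do not say whether the libraries of a group came from different animals or cultures. The p-values below therefore cover the spread between these libraries, which may be technical.

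The respiratory chain is built from 2 genomes. Complexes I, III, IV and V each combine subunits translated inside the mitochondrion from mitochondrial DNA with nuclear-encoded subunits imported from the cytosol, whereas complex II is wholly nuclear-encoded. Mitochondrial genes are transcribed as long polycistronic RNAs from both strands and cut into single mRNAs, so that their levels depend on mitochondrial DNA, its polymerase and RNA stability, while the nuclear genes each have a promoter of their own. HSC that leave quiescence in culture are known to change their energy metabolism together with their morphology and matrix output. The 37 genes comprised 7 mitochondrially encoded and 9 nuclear subunits of complex I, 4 nuclear subunits of complex II, 1 mitochondrial and 3 nuclear subunits of complex III, 3 mitochondrial and 6 nuclear subunits of complex IV, 2 mitochondrial and 1 nuclear subunit of complex V, and Cycs (cytochrome c).

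Read from the GENCODE M21 annotation of GRCm38, the mitochondrial protein-coding genes follow each other as mt-Nd1, mt-Nd2, mt-Co1, mt-Co2, mt-Atp8, mt-Atp6, mt-Co3, mt-Nd3, mt-Nd4l, mt-Nd4, mt-Nd5, mt-Nd6 and mt-Cytb. Only mt-Nd6 is annotated on the minus strand. Some of them share bases, which can limit how far their values are separate measurements. All deposited values of these genes were whole numbers, so they show no reads split between genes. The 43 bases that mt-Atp8 and mt-Atp6 share on the plus strand, at chrM:7927-7969, are shown because reads from them can belong to both genes. Capitals mark the start codon of mt-Atp6 and the stop codon of mt-Atp8.
mt-Atp8 and mt-Atp6 overlap: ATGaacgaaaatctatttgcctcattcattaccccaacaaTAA
Further overlaps are 7 bases between mt-Nd4l and mt-Nd4, 14 bases between mt-Nd5 and mt-Nd6 on opposite strands, and 1 base between mt-Atp6 and mt-Co3. The values of these genes are uncertain to the extent that reads from shared bases, from uncut precursor RNA or, for mt-Nd5 and mt-Nd6, from the opposite strand were counted.

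Promoter windows of 300 bases, from 250 bases before the annotated start to 50 after it, were available from RefSeq (GRCm38.p6) for 18 of the 24 nuclear genes. They were searched on both strands for the binding motifs of 3 known regulators of respiratory genes. These were GCATGCGC, the core of the nuclear respiratory factor 1 (NRF1) motif, the ETS-family motif CCGGAAG bound by GABP, and AAGATGGCG, bound by YY1. The NRF1 letters were found in 3 of 18 windows (Sdhb, Uqcrc1 and Cycs), or 16.7%, against 3.05% of the windows of 27025 genes. The ETS motif was found in 3 windows (Ndufs3, Sdhb and Sdhd), or 16.7%, against 9.93%, and the YY1 motif in 1 (Ndufa9), or 5.56%, against 1.64%. A match describes letters only, and binding was not measured. The 4 windows below are the 3 that carry the NRF1 letters, those of Uqcrc1, Cycs and Sdhb, and that of Sdha. The Sdha gene moved against its complex II partners on plastic. No link between a motif and a change in level was tested. The Sdha window is 1 of 12 with none of the motifs, or 66.7%, against 86.4% of all windows, and those of Cox5a and Cox5b are others. Capitals mark the motifs, and in Uqcrc1 the NRF1 letters of both strands overlap in 1 run.
Uqcrc1, chr9:108936398-108936697, plus strand: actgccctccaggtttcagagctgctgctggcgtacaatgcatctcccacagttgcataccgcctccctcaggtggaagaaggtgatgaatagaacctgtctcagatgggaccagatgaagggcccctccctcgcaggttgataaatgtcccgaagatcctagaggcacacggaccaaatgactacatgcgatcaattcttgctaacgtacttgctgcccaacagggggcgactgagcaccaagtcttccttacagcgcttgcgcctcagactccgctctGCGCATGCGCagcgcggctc
Cycs, chr6:50566520-50566819, minus strand: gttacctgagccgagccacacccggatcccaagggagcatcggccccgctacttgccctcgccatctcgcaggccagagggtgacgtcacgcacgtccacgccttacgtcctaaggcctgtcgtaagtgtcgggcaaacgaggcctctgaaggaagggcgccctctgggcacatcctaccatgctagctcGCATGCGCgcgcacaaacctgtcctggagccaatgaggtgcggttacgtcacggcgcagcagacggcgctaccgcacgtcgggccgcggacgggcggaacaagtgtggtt
Sdhb, chr4:140961021-140961320, plus strand: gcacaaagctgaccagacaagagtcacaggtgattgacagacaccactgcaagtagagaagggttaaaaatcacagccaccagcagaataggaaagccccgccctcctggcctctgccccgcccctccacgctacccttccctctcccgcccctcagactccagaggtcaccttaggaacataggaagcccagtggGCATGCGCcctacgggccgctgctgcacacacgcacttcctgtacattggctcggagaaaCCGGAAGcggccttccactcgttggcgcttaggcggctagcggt
Sdha, chr13:74350191-74350490, minus strand: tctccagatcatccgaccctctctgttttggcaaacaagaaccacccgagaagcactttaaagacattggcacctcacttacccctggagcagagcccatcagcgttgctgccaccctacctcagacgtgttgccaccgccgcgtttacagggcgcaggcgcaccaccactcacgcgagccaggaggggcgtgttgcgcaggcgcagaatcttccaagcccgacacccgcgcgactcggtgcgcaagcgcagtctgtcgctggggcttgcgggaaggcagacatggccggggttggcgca

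Total counts ranged from 6907479 to 22158674 per library, and 19057 to 22512 genes had at least 1 count. Even the least counted member reached 919 counts (mitochondrial) or 421 counts (nuclear) in its lowest library. Transcripts of other cells differed between the groups. An organoid share, the median over 14 cholangiocyte genes of their level relative to ICO of the same culture, was 27.4%, 14% and 39.8% in co-cultured HSC and 30.1%, 12.3% and 2.77% in HSC labelled as cultured alone in Matrigel. It was at most 0.229% in plastic and day 0 HSC, a low value set by the choice of genes below 5 CPM in these 2 groups. All 28 cholangiocyte markers, chosen without that limit, summed to 171 to 361 CPM on plastic and 188 to 203 CPM at day 0. Their sum was 30065 to 33330 CPM in ICO alone. Where these transcripts came from was not tested, so the values of the Matrigel HSC groups are those of the libraries so labelled. All 28 hepatocyte markers exceeded 1 CPM (counts per 1000000 counts of a library) in every day 0 library, with summed levels of 30124 to 31494 CPM, against sums of 215 to 390 CPM in co-cultured HSC, 286 to 433 CPM in HSC alone in Matrigel and 118 to 158 CPM in plastic HSC. Cps1, F2 and G6pc were at 0 counts on plastic. The stellate markers were detected throughout, with 14 or 15 of 15 above 1 CPM in all libraries of each HSC group, but their sum was 16275 to 28470 CPM in co-cultured HSC, 25922 to 49003 CPM alone in Matrigel, 8436 to 13861 CPM on plastic and 85250 to 98943 CPM at day 0.

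Mitochondrially encoded genes took several percent of all counts, and plastic HSC stood apart from the other groups. Their share was 2.50, 2.26 and 1.81% in the plastic libraries, against 4.71, 4.80 and 3.91% at day 0. It was 6.86, 7.17 and 8.15% in co-cultured HSC and 5.37, 8.60 and 5.07% in HSC alone in Matrigel. The plastic libraries were thus the 3 lowest of all 18. In organoids the share was 5.22, 6.83 and 9.20% in co-culture and 6.55, 8.13 and 8.26% alone. For the 24 nuclear genes plastic HSC were at the other end. They held 0.670, 0.690 and 0.699% of counts on plastic, against 0.368, 0.358 and 0.393% at day 0. The plastic libraries held the 3 highest shares of all 18 and the day 0 libraries the 3 lowest. The other groups lay between, at 0.519, 0.532 and 0.549% in co-cultured HSC, 0.540, 0.417 and 0.449% in HSC alone in Matrigel, 0.563, 0.582 and 0.548% in co-cultured ICO and 0.608, 0.595 and 0.607% in ICO alone.

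The ratio of mitochondrial to nuclear counts, which does not depend on library scaling, was 3.74, 3.27 and 2.59 on plastic, against 12.8, 13.4 and 9.96 at day 0. It was 13.2, 13.5 and 14.9 in co-cultured HSC, 9.95, 20.6 and 11.3 in HSC alone in Matrigel, 9.28, 11.7 and 16.8 in co-cultured ICO and 10.8, 13.7 and 13.6 in ICO alone. On the log2 scale the mean ratio on plastic was lower than at day 0 by 1.92, with a pooled SD of 0.25, a fold of 0.265. HSC alone in Matrigel exceeded plastic HSC by 2.06 (pooled SD 0.44). The other differences of this ratio of summed counts were within the spread between libraries or close to it: 0.15 (pooled SD 0.43) for HSC alone in Matrigel over day 0, 0.21 (0.18) for co-cultured HSC over day 0, 0.06 (0.40) for co-cultured HSC over HSC alone in Matrigel and -0.04 (0.33) for co-cultured ICO over ICO alone. HSC exceeded ICO by 0.07 (0.42) when cultured alone and by 0.18 (0.31) in co-culture. Taken instead as a difference of median log2 CPM over the genes, these 2 became 0.71 and 0.54, so their size depended on how the ratio was formed. No p is given for this ratio, since it is a score over chosen genes. The libraries of HSC alone in Matrigel spread most widely, and replicate 2 held both the highest ratio of all libraries and the lowest nuclear share of its group.

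**Figure D1:**
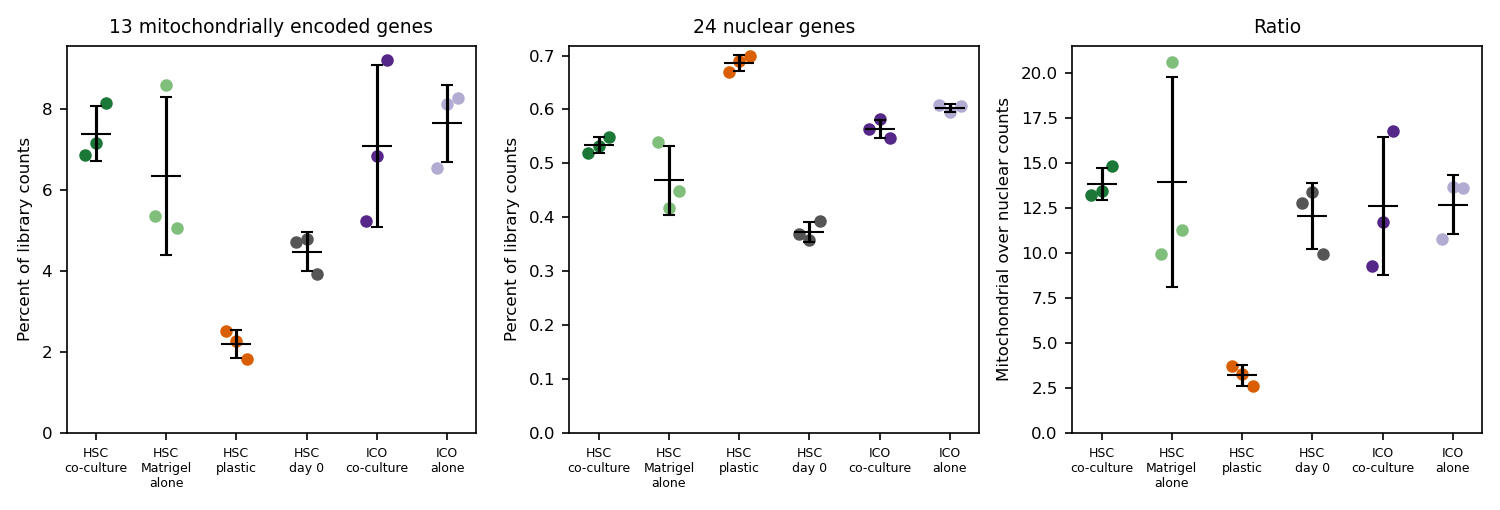
Percent of library counts in the 13 mitochondrially encoded genes (left) and the 24 nuclear genes (middle), and their ratio (right), for each of the 18 libraries by group; points are libraries, and black bars mark the group mean ± SD (n = 3). The plastic libraries are the 3 lowest for mitochondrial genes, at 1.81% to 2.50%, the 3 highest for nuclear genes, at 0.670% to 0.699%, and the 3 lowest for the ratio, at 2.59 to 3.74.

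HSC after 7 days on plastic, a stiff surface and the classical way to activate stellate cells, were set against HSC at day 0. The groups differ in surface, in time in culture and in transcripts of other cells, which cannot be told apart here. Mitochondrially encoded and nuclear subunits of the same complexes moved in opposite directions. Of the 13 mitochondrial genes, 12 were lower on plastic and 1 was not called, and of the 24 nuclear genes, 19 were higher, 1 was lower and 4 were not called (edgeR quasi-likelihood test, adjusted p under 0.05). Over all 17020 genes tested, 58% were called, 27.5% as higher and 30.5% as lower. The median log2 fold change was -1.16 over the mitochondrial genes and 0.70 over the nuclear ones, beside -0.10 over all genes tested. In bulk libraries such as these, fewer cells of a type and less RNA per cell cannot be told apart.

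All 7 mitochondrial complex I genes and all 3 of complex IV were lower on plastic. mt-Nd2, a core subunit of the proton-pumping arm of complex I, had 233, 232 and 191 CPM on plastic, against 945, 939 and 858 CPM at day 0. It fell by 2.09 ± 0.26 (log2 fold change ± SE, adjusted p = 1.34e-05), the largest change among the 13. The groups were far apart, and every day 0 library exceeded every plastic library by more than 3-fold. mt-Co1, the catalytic subunit of cytochrome c oxidase and the most abundant member, had 7408, 7308 and 4489 CPM on plastic, against 22349, 22723 and 17165 CPM at day 0, and fell by 1.72 ± 0.26 (adjusted p = 6.57e-05). mt-Nd1, at the junction of the complex I arms, had 2509, 2219 and 1862 CPM on plastic, against 6124, 6386 and 5209.5 CPM at day 0, and fell by 1.45 ± 0.23. The plastic and day 0 libraries did not overlap for either gene. mt-Nd6, the complex I gene of the other strand, fell by 1.05 ± 0.18, the smallest of the 12 called changes. It had 65.5, 71.9 and 63.6 CPM on plastic, against 151, 136 and 123 CPM at day 0. The libraries do not keep strand, so mt-Nd6 values here and below may include RNA of the opposite strand. The remaining 8, mt-Nd3, mt-Nd4, mt-Nd4l and mt-Nd5 of complex I, mt-Co2 and mt-Co3 of complex IV and mt-Atp6 and mt-Atp8 of ATP synthase, fell by 1.06 to 1.59. mt-Nd3 lost its call when the estimated organoid transcripts were subtracted from the Matrigel libraries of the shared fit (adjusted p = 0.0556), and the other 11 calls held under every alternative.

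mt-Cytb, the catalytic core of complex III and its single mitochondrial gene, did not follow the others. It had 4821, 3692 and 3629 CPM on plastic, against 4931, 4936 and 4165 CPM at day 0, and the groups overlapped: plastic replicate 1 lay within the day 0 range. Its fitted change was -0.23 ± 0.20 (adjusted p = 0.342), which does not show that the level was the same.

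Among the nuclear subunits, complex IV and complex I held the largest increases on plastic. Cox5a, a structural subunit of cytochrome c oxidase, had 205, 227 and 227 CPM on plastic, against 70.9, 74.0 and 90.1 CPM at day 0, and rose by 1.46 ± 0.15 (adjusted p = 1.90e-06). Cox5b, which sits on the matrix side of the same complex, had 286, 321 and 280.4 CPM on plastic, against 112, 106 and 125 CPM at day 0, and rose by 1.35 ± 0.22. The lowest plastic library exceeded the highest day 0 library by more than 2-fold for each of these genes. Ndufa2, an accessory subunit of complex I, rose by 1.22 ± 0.17, with 283 ± 25.1 CPM on plastic and 119 ± 11.3 CPM at day 0 (SD, n = 3 each). Ndufa9, another accessory subunit, rose by 1.19 ± 0.15, with 233 ± 19.2 CPM on plastic and 100.5 ± 7.33 CPM at day 0. Of the 9 nuclear complex I genes, 7 rose, the accessory subunits Ndufa1, Ndufb5 and Ndufb8 by 1.04, 0.32 and 0.98 and the core subunits Ndufs3 and Ndufv2 by 0.48 and 0.99. Ndufs1 (fitted change 0.15, adjusted p = 0.367) and Ndufv1 (0.30, adjusted p = 0.0562), core iron-sulfur and flavin subunits of the electron-input arm, were not called. Of the 6 nuclear complex IV genes, 5 rose, among them Cox4i1, a regulatory subunit, by 0.55 ± 0.13 and Ndufa4, now counted as a complex IV subunit, by 0.75 ± 0.17, and Cox7b by 1.03 ± 0.19. Cox6c was not called (0.27, adjusted p = 0.156).

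Complex III and complex V rose with smaller changes. Uqcrc1 rose by 0.74 ± 0.12 and Uqcrc2 by 0.55 ± 0.15, both core proteins of complex III, while the Rieske iron-sulfur protein gene Uqcrfs1 was not called (0.17, adjusted p = 0.211). Atp5b, the catalytic beta subunit of ATP synthase, had 1469.9, 1614 and 1534 CPM on plastic, against 1016, 989 and 1090.2 CPM at day 0, and rose by 0.55 ± 0.17 (adjusted p = 0.0144). Cycs had 180.2, 179.7 and 165 CPM on plastic, against 90.3, 88.7 and 82.1 CPM at day 0, and rose by 0.98 ± 0.15 (adjusted p = 8.14e-05).

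The 4 genes of complex II, succinate dehydrogenase, which also works in the tricarboxylic acid (TCA) cycle, split. Sdha, the flavoprotein subunit, had 308, 297 and 288 CPM on plastic, against 431, 444 and 418 CPM at day 0, and fell by 0.56 ± 0.11 (adjusted p = 5.46e-04), the 1 nuclear decrease. Its iron-sulfur partner Sdhb had 281, 297 and 316 CPM on plastic, against 178, 177 and 194 CPM at day 0, and rose by 0.68 ± 0.13 (adjusted p = 4.40e-04). Neither gene's groups overlapped. The membrane anchors Sdhc and Sdhd rose by 0.72 ± 0.12 and 0.35 ± 0.14. The Sdhd call was lost without any single plastic or day 0 library, with adjusted p up to 0.174. Of the other nuclear calls, Ndufb5 was lost without day 0 replicate 1 or 2 or plastic replicate 2 or 3 (up to 0.192), Uqcrc2 without day 0 replicate 1 (0.0581) and Atp5b without day 0 replicate 1 or 2 (up to 0.0612). The remaining 16 of 20 held under every alternative.

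**Figure D2:**
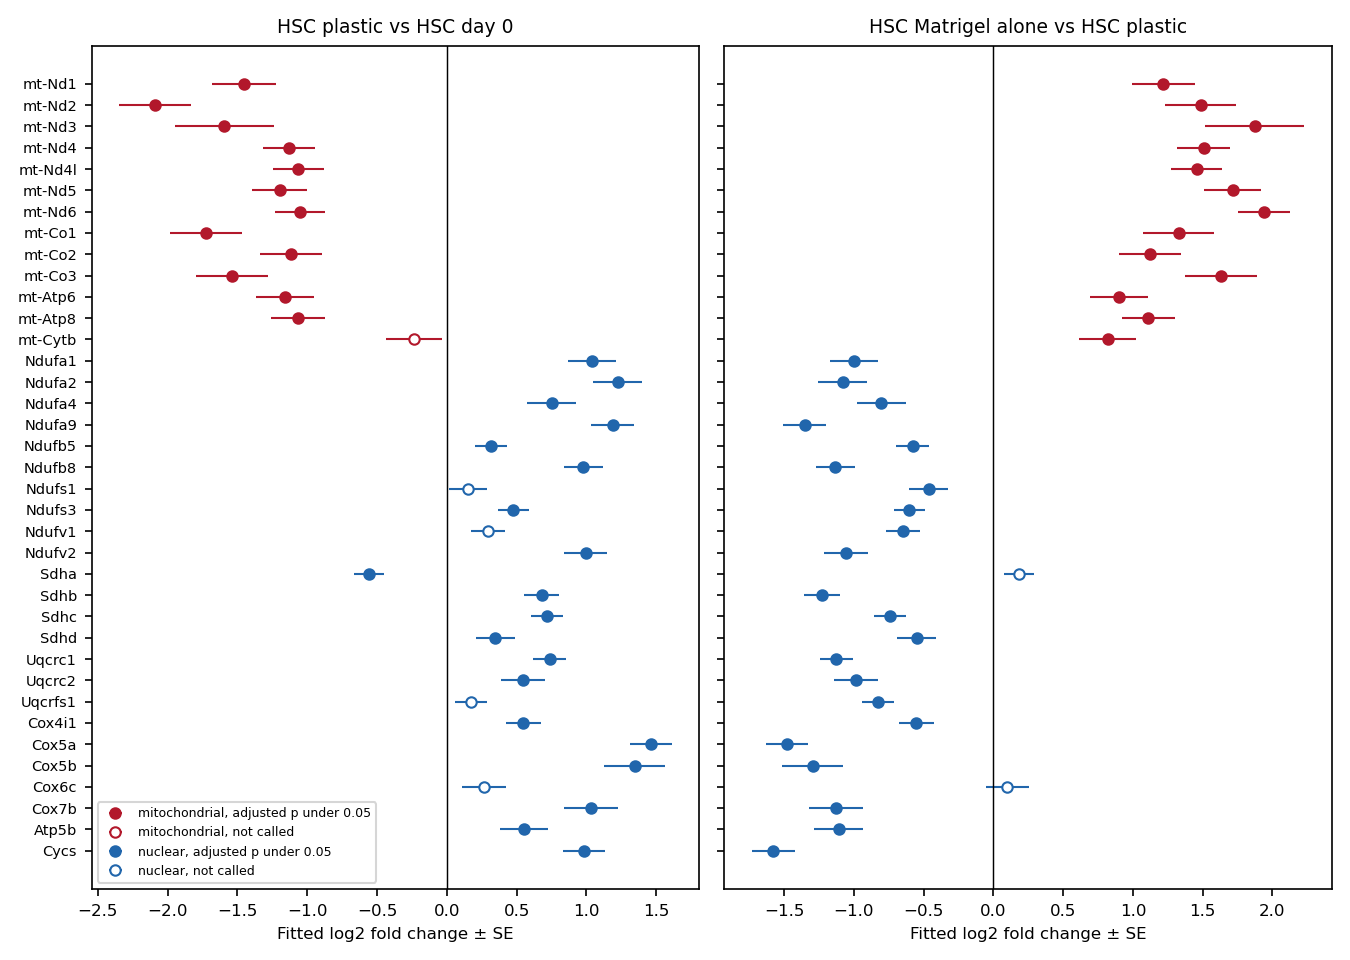
Fitted log2 fold change ± SE of each of the 37 genes for plastic HSC over day 0 HSC (left) and for HSC alone in Matrigel over plastic HSC (right); red marks mitochondrially encoded and blue nuclear genes, and open circles were not called. On the left all 13 red points lie below 0, 12 of them called, and 19 blue points were called above it. On the right all 13 red points were called above 0 and 22 blue points below it.

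The other nuclear subunits not among the 24, taken from lists by complex, moved the same way on plastic. Of 27 further complex I genes, 25 were higher (median log2 fold change 0.91), of 6 in complex III 5, of 6 in complex IV 5 and of 14 in complex V 13. Ndufa12, a complex I accessory subunit, had 296 ± 11.3 CPM on plastic, against 87.6 ± 6.41 CPM at day 0, and Atp5o, the stalk subunit of ATP synthase that confers oligomycin sensitivity, rose by 1.53 ± 0.13. Genes of the mitochondrial ribosome, which translates only the mitochondrially encoded proteins, were higher in 70 of 78 cases, with a median of 1.01. The rise was not limited to respiration: of 16 glycolysis genes 12 were higher and 0 lower (median 0.85). Of 16 TCA cycle genes 9 were higher and 1 lower. Of 39 assembly factors 19 were higher, where 27.5% of all genes were called as higher, and of 30 genes for mitochondrial DNA and RNA upkeep 14 were higher and 4 lower. Of these Rexo2, a mitochondrial oligoribonuclease, rose by 1.71 ± 0.14 and Slirp, which stabilizes mitochondrial mRNAs, by 1.32 ± 0.16, while Twnk, the mitochondrial DNA helicase, fell by 0.85 ± 0.22 and Mtpap, the mitochondrial poly(A) polymerase, fell by 0.69 ± 0.14. Of 11 biogenesis regulators 4 were lower, a share close to the 30.5% of all genes called as lower, including Ppara and Gabpa, a subunit of GABP, the factor that binds the ETS motif above. Gabpa had 36.9 ± 1.75 CPM on plastic, against 59.5 ± 1.12 CPM at day 0. Proliferation markers summed to 907 to 964 CPM on plastic and 181 to 191 CPM at day 0, and all 28 hepatocyte and all 18 endothelial markers were lower on plastic. Their part in the difference between the groups was not tested.

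HSC alone in Matrigel were then set against HSC on plastic, both at day 7. A sort before RNA isolation is stated for the Matrigel cultures and not for the plastic ones, so surface and sort cannot be told apart. The contrast between the genomes ran the other way. All 13 mitochondrial genes were higher in Matrigel, and 22 of 24 nuclear genes were lower. Over all genes tested, 55% were called, 29.9% as higher and 25.2% as lower. The median log2 fold change was 1.46 over the mitochondrial genes, -0.99 over the nuclear ones and 0.14 over all genes. The plastic libraries are the same as in the comparison with day 0, so the 2 sets of values are not independent.

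mt-Nd6 showed the largest increase, 1.94 ± 0.19 (adjusted p = 2.46e-06), with 183, 321 and 251 CPM in Matrigel, against 65.5, 71.9 and 63.6 CPM on plastic. mt-Cytb showed the smallest, 0.82 ± 0.20 (adjusted p = 0.00432), with 5542, 9200.1 and 6272 CPM in Matrigel, against 4821, 3692 and 3629 CPM on plastic. mt-Co1 rose by 1.33 ± 0.25 and mt-Nd1 by 1.22 ± 0.23. No mitochondrial gene had overlapping groups, although Matrigel replicate 2 lay well above the other 2 Matrigel libraries: mt-Co1 had 12734, 20869.7 and 13701 CPM in replicates 1, 2 and 3. All 13 calls held without any 1 library, and mt-Nd3 lost its call with organoid transcripts subtracted (adjusted p = 0.0529).

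The nuclear decreases were largest for Cycs, which had 62.2, 53.9 and 56.5 CPM in Matrigel, against 180.2, 179.7 and 165 CPM on plastic, and fell by 1.58 ± 0.15 (adjusted p = 2.76e-06). Cox5a fell by 1.48 ± 0.15, Ndufa9 by 1.35 ± 0.15 and Cox5b by 1.30 ± 0.22. All 9 nuclear complex I genes and all 3 of complex III were lower, Uqcrc2 by 0.99 ± 0.16, and of complex IV Cox4i1 was lower by 0.55 ± 0.13 and Ndufa4 by 0.80 ± 0.17. Complex II split again: Sdhb fell by 1.23 ± 0.13, Sdhc by 0.74 ± 0.12 and Sdhd by 0.55 ± 0.14, but Sdha was not called (0.18 ± 0.11, adjusted p = 0.17), with 349, 298 and 347 CPM in Matrigel and 308, 297 and 288 CPM on plastic. Cox6c was the other gene not called (0.10, adjusted p = 0.608). The 22 nuclear calls held under every alternative, including subtraction of the organoid transcripts.

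In most of the wider lists lower genes prevailed, where 25.2% of all genes were called as lower. Glycolysis went the same way, with 13 of 16 genes lower and 1 higher (median -0.71). Of 39 assembly factors 21 were lower and 1 higher. Lower in Matrigel than on plastic were 24 of 27 further complex I genes, 6 of 6 of complex III, 13 of 14 of complex V, 67 of 78 mitochondrial ribosomal genes (median -0.76) and 14 of 16 TCA cycle genes. Of the 6 further complex IV genes, 5 were lower and Cox7a2l, a factor in supercomplex assembly, was higher by 0.28 ± 0.11. Of the genes for mitochondrial DNA and RNA, 6 were higher and 10 lower: Twnk was higher by 0.63 ± 0.22 and Mterf4, which acts in mitochondrial ribosome assembly, by 0.70 ± 0.19, while Rexo2 fell by 1.96 ± 0.14. Of the 11 biogenesis regulators, 3 were higher and 3 lower. Suclg2, the GTP-forming succinyl-CoA ligase subunit, was the 1 TCA cycle gene that was higher, by 0.34 ± 0.11. Proliferation markers summed to 307 to 655 CPM in Matrigel and 907 to 964 CPM on plastic, and the macrophage markers, with 15 of 18 above 1 CPM in every Matrigel library, to 2442 to 3471 CPM in Matrigel and 128 to 559 CPM on plastic. Clec4f, Cd5l, Marco and Timd4 were at 0 counts on plastic. The part of these cells in the difference was not tested. Hepatocyte markers summed to 286 to 433 CPM in Matrigel and 118 to 158 CPM on plastic, far below day 0, but 14 of 28 were higher in Matrigel and 0 lower. Of 15 stellate markers 10 were higher and 4 lower, and of 18 endothelial markers 4 were higher and 10 lower. The part of these markers was not tested either.

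Against day 0, HSC alone in Matrigel had a median log2 fold change of 0.09 over the mitochondrial genes and -0.16 over the nuclear ones, beside 0.09 over all genes. Of the mitochondrial genes 2 were higher than at day 0 and 11 were not called, and of the nuclear genes 8 were lower and 16 not called, where 40.8% of all genes were called, 19.3% as higher and 21.5% as lower. The share of mitochondrial genes called higher was thus close to that of all genes. mt-Nd6 was higher by 0.89 ± 0.18 (adjusted p = 0.00157), with 183, 321 and 251 CPM in Matrigel, against 151, 136 and 123 CPM at day 0. mt-Cytb was higher by 0.58 ± 0.20 (adjusted p = 0.0349), with 5542, 9200.1 and 6272 CPM in Matrigel, against 4931, 4936 and 4165 CPM at day 0. Neither gene's groups overlapped. mt-Co2 had the smallest fitted change (0.01 ± 0.22), and mt-Co1 (-0.39 ± 0.25) and mt-Nd1 (-0.23 ± 0.22) were not called. The mt-Cytb call was lost without Matrigel replicate 2, without any 1 day 0 library and in 4 other alternatives, with adjusted p up to 0.169. Without Matrigel replicate 1, 4 mitochondrial genes were called.

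After TMM scaling, the nuclear genes called lower in Matrigel than at day 0 included all 3 of complex III. Uqcrfs1 had 141, 105 and 121 CPM in Matrigel, against 195, 187 and 197 CPM at day 0, and fell by 0.65 ± 0.12 (adjusted p = 5.76e-04). Cycs fell by 0.59 ± 0.15 (adjusted p = 0.00658), Atp5b by 0.56 ± 0.17 and Sdhb by 0.55 ± 0.13. Sdha fell by 0.38 ± 0.11 and Uqcrc2 by 0.44 ± 0.16. For all 8 genes the lowest Matrigel value was that of replicate 2, and without that library 3 nuclear genes were called. Without Matrigel replicate 3 or without day 0 replicate 3, 5 were called. Uqcrfs1, Sdhb and Cycs held under every alternative, none of which scaled by plain library totals. As a share of library counts the 24 nuclear genes together went the other way. They held 0.417% to 0.540% in Matrigel, against 0.358% to 0.393% at day 0. The direction of the nuclear genes as a set thus depended on the scaling. Cox4i1 (-0.00 ± 0.13) and Ndufa4 (-0.05 ± 0.17) were not called. With organoid transcripts subtracted, 1 mitochondrial gene was called higher. All 28 hepatocyte and all 18 endothelial markers were lower in Matrigel than at day 0. Of 12 proliferation markers 10 were higher, with sums of 307 to 655 CPM in Matrigel and 181 to 191 CPM at day 0, and of 18 macrophage markers 7 were higher and 5 lower. The part of these markers was not tested.

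Co-cultured HSC against day 0 HSC showed 6 called mitochondrial genes and 2 called nuclear genes, where 53.7% of all genes were called, 28.9% as higher and 24.8% as lower. The median log2 fold change was 0.55 over the mitochondrial genes and 0.04 over the nuclear ones, beside 0.09 over all genes. mt-Nd6 was higher by 0.91 ± 0.18 (adjusted p = 7.96e-04), with 237, 228 and 298 CPM in co-culture, against 151, 136 and 123 CPM at day 0. mt-Cytb was higher by 0.90 ± 0.20 (adjusted p = 0.00219), with 9055, 8350.5 and 8566 CPM in co-culture, against 4931, 4936 and 4165 CPM at day 0. For both genes the lowest co-culture library exceeded the highest day 0 library. mt-Nd5 (0.60), mt-Co2 (0.64) and mt-Atp8 (0.64) were also higher. mt-Nd2 went the other way and fell by 0.77 ± 0.25 (adjusted p = 0.0179), with 339, 552 and 701 CPM in co-culture, against 945, 939 and 858 CPM at day 0. mt-Co1, with the smallest fitted change (0.03 ± 0.25), and mt-Nd1 (-0.10 ± 0.22) were not called. The calls of mt-Nd6 and mt-Cytb held under every alternative. With the organoid share as a covariate 2 mitochondrial genes were called, and without day 0 replicate 1 3 were called.

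Of the nuclear genes, Cox5a was higher in co-culture by 0.63 ± 0.15 (adjusted p = 0.00248), with 119.6, 113 and 127 CPM in co-culture, against 70.9, 74.0 and 90.1 CPM at day 0. Sdha was lower by 0.56 ± 0.11 (adjusted p = 6.82e-04), with 293, 281 and 299 CPM in co-culture, against 431, 444 and 418 CPM at day 0. Both shares of called nuclear genes, higher and lower, were below those of all genes. The Sdha call held under every alternative, while that of Cox5a was lost with the organoid share as a covariate (adjusted p = 0.206). After TMM scaling, Sdha was thus called lower than at day 0 in each of the 3 day 7 HSC groups, which share those day 0 libraries. Sdhb (-0.17 ± 0.13), Uqcrc2 (0.12 ± 0.15), Cycs (-0.02 ± 0.15), Cox4i1 (0.32 ± 0.13) and Ndufa4 (-0.06 ± 0.17) were not called. Without co-culture replicate 1, the library of lowest depth, 5 nuclear genes were called. The hepatocyte and endothelial markers were lower in co-culture as well, all 28 and all 18. Of 18 macrophage markers 15 were lower, with sums of 151 to 233 CPM in co-culture and 1030 to 1073 CPM at day 0, and of 12 proliferation markers 10 were higher, with sums of 665 to 916 CPM in co-culture and 181 to 191 CPM at day 0. The part of these markers was not tested.

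Co-cultured HSC were next set against HSC labelled as alone in Matrigel. The libraries labelled as alone held an organoid share of 2.77% to 30.1%, and macrophage markers also differed between the groups. An effect of organoids on HSC cannot be told apart from these differences. Only increases were called: 2 mitochondrial and 8 nuclear genes, where 31.1% of all genes were called, 17.3% as higher and 13.8% as lower. The share of mitochondrial genes called as higher (2 of 13) was thus near that of all genes. The median log2 fold change was 0.29 over the mitochondrial and 0.27 over the nuclear genes, beside 0.03 over all genes. Atp5b had 1312, 1386 and 1133 CPM in co-culture, against 914, 562 and 625 CPM alone, and rose by 0.88 ± 0.17 (adjusted p = 0.00191). Cox5a rose by 0.64 ± 0.15, with 119.6, 113 and 127 CPM in co-culture, against 93.0, 62.1 and 76.7 CPM alone. Cycs rose by 0.57 ± 0.15 (adjusted p = 0.0108), with 64.1, 106 and 85.1 CPM in co-culture, against 62.2, 53.9 and 56.5 CPM alone. The groups did not overlap for any of these 3 genes. All 3 nuclear complex III genes rose, Uqcrc2 by 0.56 ± 0.16, Uqcrfs1 by 0.44 ± 0.12 and Uqcrc1 by 0.34 ± 0.12, and so did Ndufa9 (0.45) and Sdhb (0.38). Sdha (-0.18 ± 0.11), Cox4i1 (0.32 ± 0.13) and Ndufa4 (-0.01 ± 0.17) were not called.

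The 2 mitochondrial calls of that comparison were mt-Co2 (0.64 ± 0.22, adjusted p = 0.0437) and mt-Atp8 (0.60 ± 0.19, adjusted p = 0.0272). mt-Co2, the copper-binding subunit that takes electrons from cytochrome c, had 5822, 6788 and 7537 CPM in co-culture, against 3808, 5810.0 and 3414 CPM alone, which left co-culture replicate 1 and Matrigel replicate 2 almost equal. mt-Atp8 had overlapping groups. mt-Nd4 had the smallest fitted change (0.02 ± 0.18), and mt-Co1 (0.42 ± 0.25), mt-Nd1 (0.13 ± 0.22), mt-Nd6 (0.02 ± 0.18) and mt-Cytb (0.31 ± 0.20) were not called. These counts rested on single libraries. Without Matrigel replicate 1 or 3 both mitochondrial calls were lost, and without any 1 co-culture library 1 was. Without Matrigel replicate 2, 5 mitochondrial genes were called. For nuclear genes, 3 were called without Matrigel replicate 2 and 4 without replicate 3. Atp5b and Cox5a held under every alternative. With organoid transcripts subtracted, 3 mitochondrial genes were higher, 9 nuclear genes were higher and Sdha was lower (adjusted p = 0.0133).

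Among other pathway genes, those of glycolysis rose most often in co-cultured HSC over HSC alone in Matrigel: 15 of 16 rose, Hk2, the inducible hexokinase, by 2.59 ± 0.24, and Slc16a3, a lactate exporter, to 244 ± 87.1 CPM, against 10.5 ± 7.95 CPM alone. Of 16 TCA cycle genes 10 rose, including Idh3a by 0.87 ± 0.14, and of 78 mitochondrial ribosomal genes 18 rose, where 17.3% of all genes were called as higher. The subunit isoforms known from hypoxic or particular tissues rose in 3 of 4 tested genes. Ndufa4l2, a hypoxia-induced relative of Ndufa4, had 48.2 ± 23.3 CPM in co-cultured HSC, 0.541 ± 0.323 CPM alone in Matrigel, 0.144 ± 0.147 CPM on plastic and 16.1 ± 2.12 CPM at day 0. Cox4i2, the alternative form of Cox4i1, had 10.3 ± 1.58 CPM in co-cultured HSC, 0.687 ± 0.308 CPM alone in Matrigel, 0.573 ± 0.165 CPM on plastic and 3.77 ± 0.439 CPM at day 0. Both stayed far below their ordinary counterparts in CPM, a scale that does not allow for gene length. Macrophage markers summed to 151 to 233 CPM in co-cultured HSC, with Clec4f and Timd4 at 0 counts, and 2442 to 3471 CPM in HSC alone, and 13 of 18 were lower. Proliferation markers, of which 7 of 12 rose, summed to 665 to 916 CPM in co-cultured HSC and 307 to 655 CPM in HSC alone. The part of either in the differences was not tested.

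In organoids, co-culture with HSC changed few of these genes. No mitochondrial gene was called by edgeR, none had an unadjusted p under 0.05, and DESeq2 called none either. Of the nuclear genes 2 were lower, where 16.6% of all genes were called, 8.59% as higher and 7.96% as lower. That share of nuclear genes was near that of all genes, and the medians were -0.05 over the mitochondrial and -0.04 over the nuclear genes. Cycs had 57.8, 66.8 and 62.4 CPM in co-cultured ICO, against 104, 99.3 and 96.0 CPM in ICO alone, and fell by 0.71 ± 0.09 (adjusted p = 4.24e-05). The groups were well apart, and the call held under every alternative. Ndufa4 had 246, 287 and 231 CPM in co-cultured ICO, against 305, 313 and 339.8 CPM alone, and fell by 0.36 ± 0.10 (adjusted p = 0.0161). Its call was lost without ICO alone replicate 3, without co-cultured ICO replicate 1 or 3, and in the fit of all 18 libraries (adjusted p up to 0.297). mt-Nd1 had the largest mitochondrial fitted change (-0.40 ± 0.19, adjusted p = 0.187) and mt-Nd2 the smallest (0.02 ± 0.15). mt-Cytb (-0.36 ± 0.22), mt-Co1 (0.09 ± 0.20), mt-Nd6 (-0.05 ± 0.20), Cox4i1 (0.12 ± 0.10), Sdha (0.18 ± 0.09), Sdhb (-0.20 ± 0.10) and Uqcrc2 (0.14 ± 0.09) were not called. Without co-cultured ICO replicate 3, the library with the highest mitochondrial share, 3 mitochondrial genes were called, and without replicate 2 4 nuclear genes were. All 12 proliferation markers were lower in co-cultured ICO, with sums of 386 to 511 CPM, against 787 to 930 CPM alone, and their part was not tested.

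HSC were also set against ICO within each Matrigel culture. Cultured alone, HSC had lower levels of 13 nuclear genes than ICO, no mitochondrial gene was called by edgeR, 1 had an unadjusted p under 0.05 and DESeq2 called 1. Over all genes 56.8% were called, 30.9% as higher and 25.8% as lower. The median log2 fold change was -0.21 over the mitochondrial genes and -0.34 over the nuclear ones, beside 0.09 over all genes. The largest decrease was that of Cox5a, with 93.0, 62.1 and 76.7 CPM in HSC, against 186, 188 and 179 CPM in ICO (-1.09 ± 0.14, adjusted p = 2.54e-05). Atp5b (-0.67 ± 0.17), Uqcrc2 (-0.66 ± 0.14) and Cox7b (-0.66 ± 0.18) followed. Cox4i1, Cycs, Ndufa4 and Sdhb were also lower in HSC, by 0.56 ± 0.13, 0.63 ± 0.15, 0.46 ± 0.17 and 0.33 ± 0.13. Sdha was not called (0.15 ± 0.10). Among the mitochondrial genes the fitted change was largest for mt-Nd3 (-0.79 ± 0.32, adjusted p = 0.0547) and smallest for mt-Atp8 (0.01 ± 0.25), and mt-Co1 (-0.40 ± 0.26), mt-Cytb (-0.32 ± 0.27), mt-Nd1 (-0.26 ± 0.27) and mt-Nd6 (0.38 ± 0.24) were not called. Without HSC replicate 2, 4 mitochondrial genes were called. Of the 13 nuclear calls, 9 held under every alternative, and Ndufa4, Ndufb5, Sdhb and Cox5b did not. The HSC libraries held an organoid share of 2.77% to 30.1%. Of 15 macrophage markers tested 14 were higher in HSC, with sums over all 18 of 2442 to 3471 CPM in HSC and 20.4 to 64.3 CPM in ICO. Of 10 endothelial markers tested 6 were higher in HSC and 2 lower. Proliferation markers summed to 307 to 655 CPM in HSC and 787 to 930 CPM in ICO. The part of these markers was not tested.

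Within the co-culture 5 nuclear genes differed, where 39.6% of all genes were called, 24% as higher and 15.6% as lower. The medians were 0.22 over the mitochondrial and -0.20 over the nuclear genes, beside 0.05 over all genes. Cycs was higher in co-cultured HSC than in co-cultured ICO by 0.56 ± 0.15 (adjusted p = 0.0102), with 64.1, 106 and 85.1 CPM in HSC, against 57.8, 66.8 and 62.4 CPM in ICO, and the lowest HSC library fell inside the ICO range. Sdhd was lower by 0.65 ± 0.14, with 128, 109.7 and 153 CPM in HSC, against 201, 246 and 215 CPM in ICO. Cox4i1 was lower by 0.46 ± 0.13, Ndufb5 by 0.38 ± 0.11 and Sdha by 0.30 ± 0.10. The Sdhd call held under every alternative. Without HSC replicate 2, it was the 1 nuclear call left. Sdhb (0.15 ± 0.13), Uqcrc2 (-0.33 ± 0.14) and Ndufa4 (-0.20 ± 0.17) were not called. No mitochondrial gene was called by edgeR, 1 had an unadjusted p under 0.05 and DESeq2 called 1, mt-Nd3 (-0.75 ± 0.32 in the edgeR fit, the largest of the 13). Without HSC replicate 3 or without ICO replicate 3, 1 was called. The smallest fitted change was that of mt-Co2 (0.06 ± 0.24), and mt-Co1 (-0.17 ± 0.26), mt-Cytb (0.26 ± 0.27), mt-Nd1 (0.17 ± 0.27) and mt-Nd6 (0.35 ± 0.24) were not called. HSC libraries held an organoid share of 14% to 39.8% there. Of 12 proliferation markers 9 were higher in HSC, with sums of 665 to 916 CPM in HSC and 386 to 511 CPM in ICO, and of 15 macrophage markers tested 11 were higher, with sums over all 18 of 151 to 233 CPM in HSC and 29.8 to 36.4 CPM in ICO. Their part was not tested. With organoid transcripts subtracted, 10 nuclear genes were called.

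Whether co-culture acted differently on the 2 cell types was tested as an interaction over the 12 Matrigel libraries. Of the 37 genes, 4 nuclear ones were called, where 17.2% of all genes were, 9.08% as higher and 8.08% as lower, so the members' share was close to that of all genes or below it. For Cycs the effect in HSC exceeded that in ICO by 1.19 ± 0.21 (adjusted p = 0.00243): it rose in co-cultured HSC and fell in co-cultured ICO. Atp5b (0.89 ± 0.24, adjusted p = 0.0214) and Cox5a (0.81 ± 0.19, adjusted p = 0.011) rose in co-cultured HSC and were not called in ICO, at -0.11 and -0.26. Sdha (-0.45 ± 0.14, adjusted p = 0.0406) was called in neither cell type alone, at -0.18 in HSC and 0.18 in ICO. The calls of Cycs and Cox5a held under every alternative. That of Atp5b was lost without HSC alone replicate 2 or 3, ICO alone replicate 1 or 3 or co-cultured ICO replicate 1 (up to 0.0597), and that of Sdha in 14 of 19 alternatives, 11 of them each leaving out 1 library (up to 0.109). Without HSC alone replicate 1, 7 nuclear genes were called. No mitochondrial gene was called by edgeR, none had an unadjusted p under 0.05, and DESeq2 called none. mt-Cytb had the largest fitted difference (0.57 ± 0.38) and mt-Nd6 the smallest (-0.03 ± 0.33). mt-Co1 (0.23 ± 0.37), mt-Nd1 (0.43 ± 0.38), Sdhb (0.48 ± 0.18), Uqcrc2 (0.33 ± 0.20), Cox4i1 (0.10 ± 0.18) and Ndufa4 (0.26 ± 0.24) were not called.

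**Figure D3:**
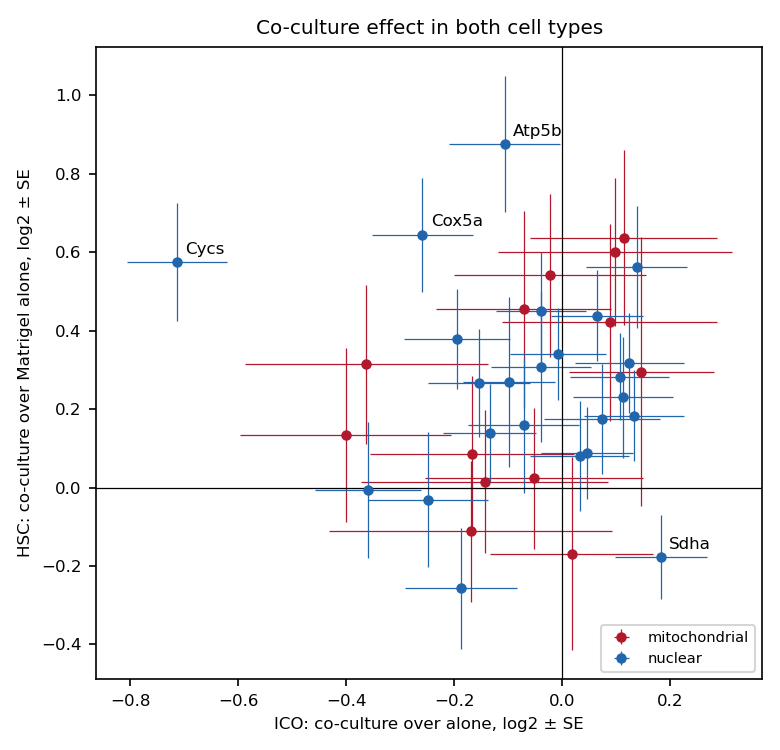
Fitted co-culture effect (log2 ± SE) in HSC (vertical, co-culture over Matrigel alone) and in ICO (horizontal, co-culture over alone) for each of the 37 genes; red marks mitochondrially encoded and blue nuclear genes, and names mark the 4 genes whose effects differed between the cell types. Cycs lies at the upper left, at 0.57 in HSC and -0.71 in ICO, and most genes lie near 0 on the horizontal axis.

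Because the mitochondrial genes are cut from shared precursors, their make-up within a library was also followed. mt-Cytb held 15.1% to 19.2% of the mitochondrially encoded counts on plastic and 8.19% to 8.53% at day 0. It held 11.2% to 14.7% in co-cultured HSC, 12.7% to 14.1% in HSC alone in Matrigel, 9.93% to 12% in co-cultured ICO and 12.8% to 14% in ICO alone. Day 0 HSC were the lowest group and plastic HSC the highest, with no overlap between either and any other group. mt-Co1 held 23.8% to 29.8% on plastic, against 35.2% to 37.7% at day 0. The count ratio of mt-Co1 to mt-Cytb was 1.54, 1.98 and 1.24 on plastic, against 4.53, 4.60 and 4.12 at day 0. It was 2.11, 2.39 and 2.80 in co-cultured HSC, 2.30, 2.27 and 2.18 in HSC alone in Matrigel, 3.50, 3.48 and 2.98 in co-cultured ICO and 2.49, 2.17 and 2.51 in ICO alone. So the mitochondrial genes did not move as 1 block, and each cultured group had a ratio below every day 0 library. mt-Nd2 held 1.56% to 1.76% of the mitochondrial counts at day 0 and at most 1.15% in any cultured library. Its share was 0.881% to 1.01% on plastic, and the lowest single value, 0.549%, was in co-cultured HSC. mt-Nd3 held 0.597% to 1.21% in co-cultured ICO and 0.646% to 0.882% in ICO alone, against 0.362% to 0.638% in co-cultured HSC and 0.424% to 0.622% in HSC alone in Matrigel. In CPM, mt-Nd3 averaged 358 ± 131 in co-cultured HSC, 294 ± 117 in HSC alone in Matrigel, 81.5 ± 29.5 on plastic, 242 ± 17.0 at day 0, 651 ± 116 in co-cultured ICO and 575 ± 98.7 in ICO alone (SD, n = 3 each).

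**Figure D4:**
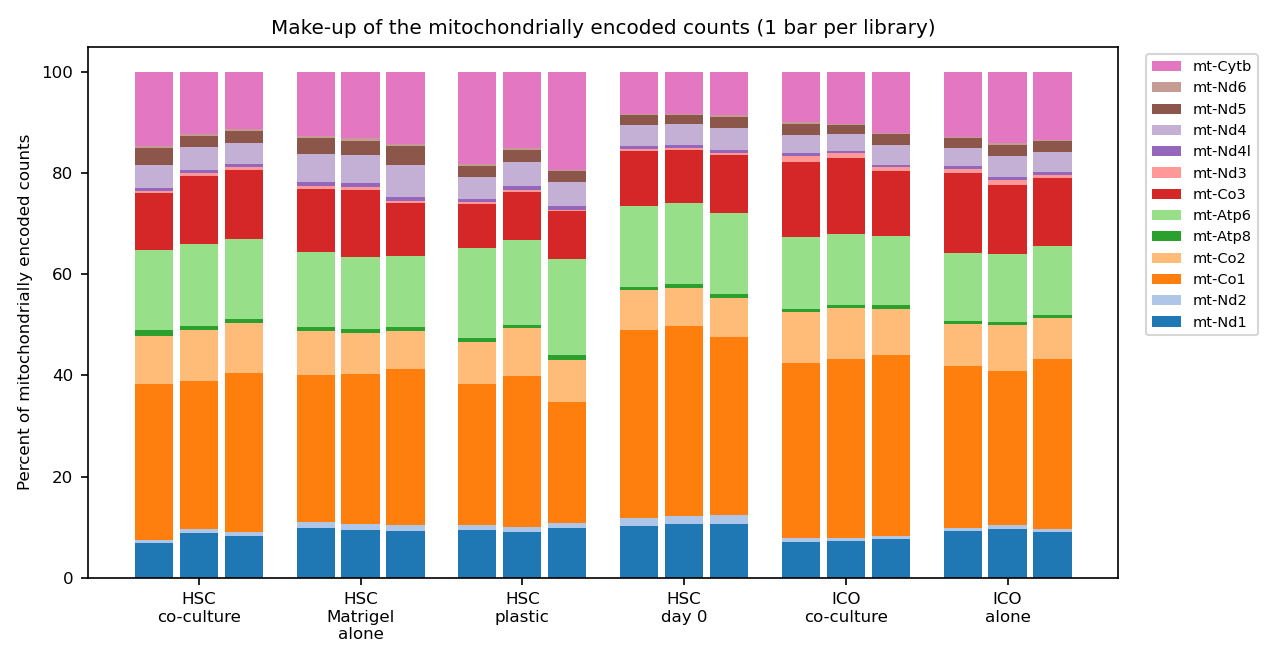
Percent of mitochondrially encoded counts taken by each of the 13 genes, stacked in genome order, with 1 bar per library. mt-Co1 and mt-Cytb differ most visibly between plastic and day 0: mt-Co1 takes 23.8% to 29.8% on plastic and 35.2% to 37.7% at day 0, and mt-Cytb 15.1% to 19.2% on plastic and 8.19% to 8.53% at day 0.

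Genes that lie on 1 mature mRNA also had different values on a per-length scale, which divides by the full annotated gene length. Such a gap within a pair cannot be read as a difference in mRNA level, and its source was not tested. mt-Atp8 and mt-Atp6 are known to be read from 1 bicistronic mRNA. mt-Atp8 had 931 ± 112 CPM per kilobase on plastic and 1914 ± 23.6 at day 0, while mt-Atp6 had 6065 ± 814 CPM per kilobase on plastic and 13306 ± 1528 at day 0 (SD, n = 3 each). mt-Nd4l and mt-Nd4 are another such pair. mt-Nd4l had 541 ± 77.9 CPM per kilobase on plastic and 1111 ± 123 at day 0, and mt-Nd4 had 791 ± 112 on plastic and 1701 ± 144 at day 0. The members of each pair fell together on plastic, by 1.07 ± 0.19 and 1.16 ± 0.21 for the first pair and by 1.06 ± 0.18 and 1.13 ± 0.19 for the second. mt-Nd6 had the lowest level per kilobase in all 6 groups, with 490.3 ± 72.8 CPM per kilobase in co-cultured HSC, 485 ± 133 in HSC alone in Matrigel, 129 ± 8.34 on plastic, 263 ± 27.6 at day 0, 415 ± 89.9 in co-cultured ICO and 420.1 ± 101 in ICO alone. Because strand was not kept, the mt-Nd6 level may also include RNA of the opposite strand. Smart-seq2 primes cDNA at poly(A) tails, so a level can also depend on how far an mRNA is polyadenylated.

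Across the 6 groups the order of mean levels differed by genome. All 13 mitochondrial genes had their lowest mean in plastic HSC, and their highest mean lay in co-cultured HSC for 5, in co-cultured ICO for 3, in ICO alone for 3, in HSC alone in Matrigel for 1 and in day 0 HSC for 1 (mt-Nd2). Of the 24 nuclear genes, 19 had their highest mean in plastic HSC and 18 their lowest in HSC alone in Matrigel. These are TMM-scaled levels, whereas as a share of library counts the nuclear genes were lowest at day 0. Sdha was the 1 nuclear gene with its highest mean at day 0. It averaged 291 ± 9.29 CPM in co-cultured HSC, 331 ± 29.0 CPM in HSC alone in Matrigel, 298 ± 10.2 CPM on plastic, 431 ± 13 CPM at day 0, 389 ± 14.3 CPM in co-cultured ICO and 335 ± 5.89 CPM in ICO alone (SD, n = 3 each). Cycs instead was highest on plastic among HSC, with 85 ± 20.7 CPM in co-culture, 57.6 ± 4.28 CPM alone in Matrigel, 175 ± 8.49 CPM on plastic and 87.1 ± 4.36 CPM at day 0. mt-Cytb was the 1 mitochondrial gene whose plastic range overlapped that of another group. Among the other 5 groups every pair of ranges overlapped for mt-Co1 and mt-Nd1, so their order there is not beyond the spread between libraries.

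**Figure D5:**
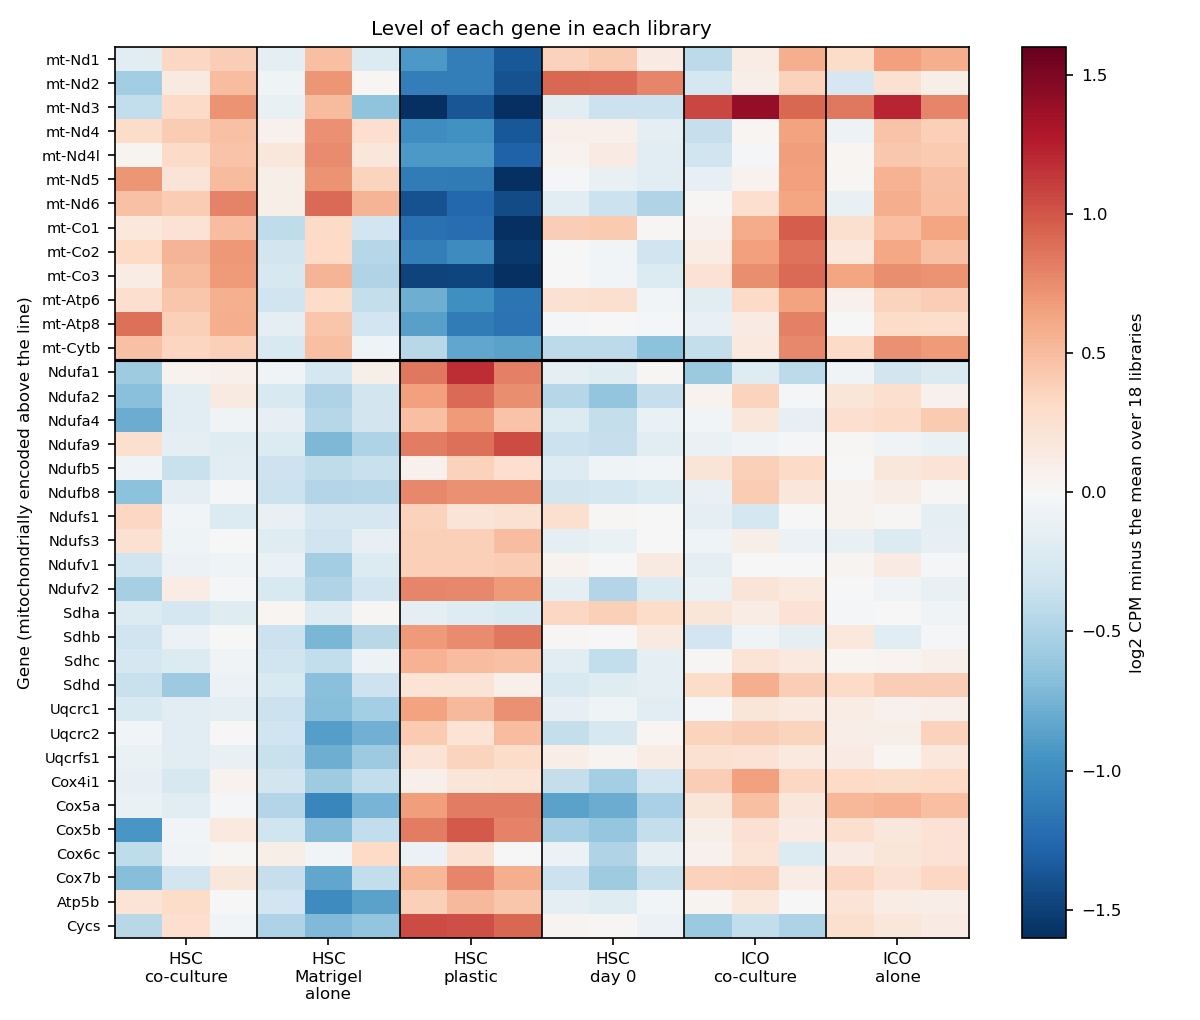
Level of each of the 37 genes in each of the 18 libraries as log2 CPM minus the gene's mean over all libraries; columns are libraries by group, rows above the black line are mitochondrially encoded, red is above and blue below the gene's mean, and the colour scale ends at 1.6 in both directions. The plastic columns are blue above the line for the 13 mitochondrial genes and red below it for most nuclear genes.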

How the data were processed

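The deposited table holds estimated counts per gene from the authors' quantification; kallisto 0.46.1, the build GRCm39 and DESeq2 1.36.0 appear in the submitters' processing notes, with no role or order given. Per the labels' protocols, RNA was isolated with RNeasy Micro columns and DNase, amplified by Smart-seq2 and tagmented with Nextera XT, a protocol that does not keep strand and for which no molecular identifiers are stated. Estimated counts were rounded to whole numbers. All mitochondrial values were already whole (tolerance 1e-06), and 20 of the 24 nuclear genes had values that were not, which arise where reads are shared between similar transcripts, so nuclear levels may be split with pseudogenes.

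Library sizes were scaled with TMM, genes were filtered with filterByExpr, and edgeR 4.0.16 quasi-likelihood tests (robust; R 4.3.3) with Benjamini-Hochberg adjustment over all genes tested were fitted to the 12 HSC libraries, the 6 ICO libraries and, for HSC against ICO and the interaction, the 12 Matrigel libraries. Adjusted p under 0.05 is a call. All 37 genes passed every filter. SE is the log2 fold change divided by the root of its F statistic, and CPM uses TMM over all 18 libraries. CPM per kilobase divides by the annotated GRCm38 gene length. Tests were checked on simulated counts. Alternatives were RLE scaling, scaling without mitochondrial genes, no filter, DESeq2 1.42.0, all 18 libraries in 1 fit, only the libraries compared, a replicate block, the organoid share as covariate or subtracted, and leaving out each library.

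The organoid share used the 14 cholangiocyte genes above 100 CPM in ICO and below 5 CPM in plastic and day 0 HSC. All members were accounted for; per comparison the text names the mitochondrial genes of largest and smallest change, up to 4 nuclear genes called in each direction, 10 genes of fixed interest and up to 2 called genes of 10 CPM or more per list and direction. Members and lists were chosen with earlier results of these data known. Genes named outside this rule were chosen after their values were seen.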

Additional observations from a re-analysis of the deposited data

Results flagged for a closer look

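For 4 of the 24 nuclear genes the co-culture effect differed between HSC and ICO in the interaction test over the 12 Matrigel libraries (edgeR quasi-likelihood, adjusted over 16233 genes). Over all genes 17.2% were called, so the share of nuclear genes called was close to that of all genes. The calls of Cycs and Cox5a held under every alternative, and those of Atp5b and Sdha did not. For Cycs the log2 effect in HSC minus that in ICO was 1.19 (adjusted p = 0.00243), with 85 ± 20.7 CPM in co-cultured HSC and 57.6 ± 4.28 CPM in HSC alone, and 62.4 ± 4.48 CPM in co-cultured ICO and 99.8 ± 4.17 CPM in ICO alone (SD, n = 3 each). For Atp5b it was 0.89 (adjusted p = 0.0214), with 1277 ± 129.8 CPM in co-cultured HSC and 700.3 ± 188 CPM in HSC alone. For Cox5a it was 0.81 (adjusted p = 0.011), with 120.1 ± 7.05 CPM in co-cultured HSC and 77.3 ± 15.4 CPM in HSC alone. For Sdha it was -0.45 (adjusted p = 0.0406), with 291 ± 9.29 CPM in co-cultured HSC and 331 ± 29.0 CPM in HSC alone, and 389 ± 14.3 CPM in co-cultured ICO and 335 ± 5.89 CPM in ICO alone. Of 12 proliferation markers, 9 were called in this test with the same sign as Cycs, and their part was not tested.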

How the results depend on the processing

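For the contrast between the genomes on plastic, the log2 ratio difference without any 1 library stayed between -2.05 and -1.77 against day 0. For Matrigel over plastic it stayed between 1.74 and 2.27. This shows its size only: the groups did not overlap in the ratio, so leaving out 1 library could not reverse it. Scaling, filter and test cannot change a ratio of counts. No member's call reversed. Smaller comparisons moved. For Matrigel alone against day 0, mitochondrial calls were 4 with DESeq2 and 1 with all 18 libraries, the replicate block or subtraction, and without 1 library 1 to 4 mitochondrial and 3 to 8 nuclear. For co-culture against day 0, the organoid covariate gave 5398 genes, 2 mitochondrial and 1 nuclear, subtraction 4 nuclear, and leaving out 1 library 3 to 6 mitochondrial and 2 to 5 nuclear. For co-culture against Matrigel alone, mitochondrial calls were 1 with RLE and 0 with the covariate, which kept 4 nuclear. Only the libraries compared gave 3453 genes, 0 mitochondrial and 2 nuclear, and leaving out 1 library 0 to 5 mitochondrial and 3 to 11 nuclear. In ICO, all 18 libraries gave 546 genes and 1 nuclear, no filter 1 mitochondrial, and leaving out 1 library 1425 to 1948 genes, 0 to 3 mitochondrial and 1 to 4 nuclear. For HSC against ICO alone, mitochondrial calls were 1 with scaling without mitochondrial genes, DESeq2 or the replicate block, 3 with all 18 libraries and 0 to 4 without 1 library. In co-culture they were 1 with DESeq2, all 18 libraries or only those compared and 0 to 1 without 1 library, and nuclear calls 12 with all 18 libraries, 10 with subtraction and 1 to 7 without 1 library. The interaction gave 2 to 7 nuclear without 1 library. The ratio as a difference of median log2 CPM was 0.71 for HSC over ICO alone and 0.54 in co-culture. Pkm in Matrigel alone against day 0 turned to -0.51 with subtraction (adjusted p = 0.798, edgeR). The causes were not tested. Libraries sharing a replicate number correlated between -0.44 and 0.11 in their deviations from group means, which gave no sign of pairing but cannot exclude it. The labels give co-cultured HSC and co-cultured ICO the same library codes. Whether libraries of the same code came from 1 co-culture is not stated. The replicate block kept 325 of 333 member results on the same side of the threshold. Levels rest on 3 libraries a group, estimated counts, and no statement of separate animals.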

Other observations

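Glycolysis genes moved in both cell types with co-culture: 15 of 16 rose in co-cultured HSC and 11 of 16 in co-cultured ICO, and the effect was larger in HSC for 15 of 16 by the interaction test, with a median difference of 1.58. Over all genes, 9.08% were called as higher in that test. The TCA cycle, which feeds electrons to the chain, had 6 of 16 genes with a larger co-culture effect in HSC and 1 with a smaller one.

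Mitochondrial ribosomal genes are nuclear genes whose products translate the mitochondrially encoded proteins. Against day 0, 43 of 78 were higher in co-cultured HSC (median 0.40), where 28.9% of all genes were, and 70 were higher on plastic (median 1.01), where 27.5% were. In HSC alone in Matrigel 18 were higher (median 0.15), a share close to the 19.3% of all genes. None was called lower in these 3 comparisons, which share the day 0 libraries. Mrpl33, of the large ribosomal subunit, rose by 2.66 ± 0.13 on plastic, and Mrpl54 by 2.42 ± 0.15.

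Cox6b2, the testis form of a complex IV subunit, had 31.5 ± 10.3 CPM in co-cultured HSC, 2.64 ± 0.401 CPM in HSC alone in Matrigel, 25.2 ± 4.92 CPM on plastic and 1.66 ± 0.452 CPM at day 0, and it was the 1 isoform higher on plastic than at day 0 (3.88 ± 0.30). Ndufa4l2 on plastic fell by 6.66 on the fitted log2 scale against day 0, a value that depends on the prior count, since plastic libraries held 0.144 ± 0.147 CPM.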
